A study of Mus musculus with 4 samples.

Results

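Blood neutrophils were followed among the cells of 4 single-cell RNA sequencing libraries prepared from blood enriched for T cells of mice bearing MC-38 tumors, a colorectal cancer line. The cells were chosen by their own UMI counts. A cell was taken as a neutrophil when it held at least 5 UMIs (unique molecular identifiers, each counting 1 captured transcript) of *S100a8* and *S100a9* together and UMIs of at least 2 genes among *Retnlg*, *Csf3r*, *Mmp9*, *Lcn2*, *Ngp*, *Clec4d*, *Il1b* and *Slpi*. It also had to hold fewer than 2 of the monocyte genes *Csf1r*, *Clec4a1*, *Clec4a3* and *Ear2* and between 200 and 2900 detected genes. This rule found 52 neutrophils among 5276 kept cells, of 5434 deposited. All mice were female C57BL/6 animals, 6 to 8 weeks old by the labels, and carried a subcutaneous MC-38 tumor for 18 days. Untreated mice received no antibody. Anti-PD-L1 was given on days 10, 13 and 17, agonistic anti-OX40 with the TLR9 ligand CpG on day 7, and PDOX was the combination of both schedules. The GEO labels name OX40 alone for the third library, and CpG comes from the methods of the study. There was 1 library per treatment, and the GEO design text gives 4 blood samples from 4 mice, so the treatment, the mouse and the library cannot be told apart, and no test between treatments was possible. Intervals given in parentheses are 95% intervals for counting error only.

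Neutrophils are short-lived granulocytes made in the bone marrow, which carry ready-made antimicrobial proteins in granules and are among the first cells recruited to inflamed tissue. Granule proteins are produced in sequence during maturation: those of primary granules in promyelocytes, those of secondary granules in myelocytes and metamyelocytes, and those of tertiary granules and secretory vesicles late, so a circulating neutrophil keeps the proteins long after it has stopped making most of the transcripts. Blood neutrophils respond to type I and type II interferons with a set of antiviral and antigen presentation genes, and in tumor-bearing hosts they have been described as both tumor-restraining and T cell-suppressing. They hold little RNA per cell, and standard droplet protocols capture fewer transcripts from them than from lymphocytes.

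The cells analysed were residual. Red cells had been lysed and T cells had been isolated by negative selection in 2 consecutive rounds, so a share of neutrophils in a library is a share of what passed that selection and no blood count. The deposited libraries held 2392650 to 4969885 UMIs. A neutrophil held a median of 888.5 UMIs and 375 genes, against 1634 UMIs and 911 genes in the other cells (mitochondrial, ribosomal protein and hemoglobin genes not counted). Mitochondrial genes took 0.478% of all UMIs of the neutrophils and 2.39% of those of the other cells, and ribosomal protein genes took 5.95% and 38.4%. Of the deposited barcodes, 16 occurred in 2 or more libraries, and none of these was a neutrophil. *S100a8* or *S100a9* UMIs were found in 1.16 to 2.17% of the other cells of a library, at summed levels of 0.0707 to 0.359 per 10000, and 1 PDOX cell just outside the rule held 54 of these UMIs. In cells with at least 2 Cd3 genes, T cells that should lack both genes, the share was 0.833 to 2.05%. No doublet caller was run.

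The rule separated the neutrophils widely. *S100a8* and *S100a9*, which form the calcium-binding protein calprotectin, gave a median of 157.5 UMIs per neutrophil, up to 1389, and 21.4% of all counted UMIs. Just inside the limit lay cells with 17, 22 and 23 UMIs, and just outside it 4 cells with 7, 15, 17 and 54 UMIs that held at most 1 of the further genes. Every neutrophil held at least 3 of the 8 further genes, although the rule asked for 2, and 47 of 52 held no monocyte gene. These are the values that chose the cells and are given as a description. Of neutrophil genes that the rule did not use, *Cxcr2*, *Ly6g*, *Camp*, *Mmp8*, *Stfa2l1* and *Wfdc21* were found in 22, 8, 3, 19, 15 and 28 cells. Except for *Ly6g*, they are among the highest ratios of these same cells, so they describe the cells and do not test the label. The 7 B cell, 9 NK cell, 7 basophil and mast cell and 8 dendritic cell markers in the files had 0 UMIs in the 52 cells. For each of these lists the summed level was at most 0.709 per 10000. The 13 T cell markers gave 24 UMIs in 13 neutrophils, a summed level of 4.61 (2.96 to 6.86) per 10000 against 96.1 in the other cells.

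**Figure D1:**
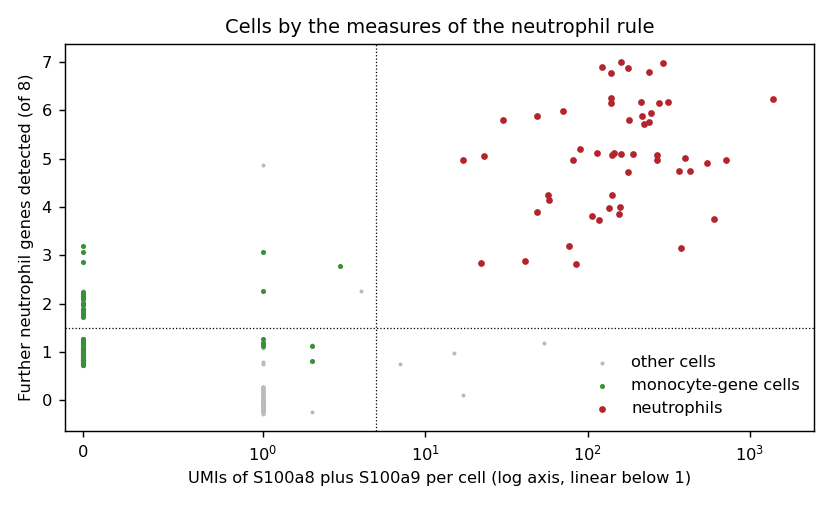
Each point is 1 kept cell with a UMI of S100a8, S100a9 or a further gene, placed by its UMIs of S100a8 plus S100a9 (x axis, log scale, linear below 1) and by how many of 8 further neutrophil genes it held (y axis, spread vertically at random for display); dotted lines mark the limits of the rule. The 52 neutrophils lie between 17 and 1389 UMIs with 3 or more further genes, and 4 cells past 5 UMIs fall below the second limit.

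One neutrophil of the PDOX library also held UMIs of 2 Cd3 genes, the T cell receptor signalling chains. It had 1897 UMIs and 954 genes, the most genes of any neutrophil, with 30 UMIs of *S100a8* and *S100a9*, 3 UMIs of Cd3 genes and 72 of the 74 UMIs of *Ccl5*, a chemokine of effector T and NK cells, that were found in all neutrophils. Whether 2 cells shared this droplet was not tested. The cell also held 34 UMIs of the MHC class I genes below, 6 of them of *H2-K1*. The summed class I level of the PDOX library is also given without this cell, and the other PDOX values include it.

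How many neutrophils remained after T cell enrichment differed between the libraries. The untreated library held 13 neutrophils among 783 kept cells, a share of 1.66% (0.887 to 2.82%). The anti-PD-L1 library held 6 among 1432, or 0.419% (0.154 to 0.91%), and the anti-OX40/CpG library 3 among 1555, or 0.193% (0.0398 to 0.563%). In the PDOX library there were 30 among 1506, or 1.99% (1.35 to 2.83%), so that 57.7% of all neutrophils came from this library. The untreated and PDOX shares had a ratio of 1.2 (0.607 to 2.51), an interval that includes 1, and the same held for anti-PD-L1 over anti-OX40/CpG at 2.17 (0.464 to 13.4). Both of the former lay above both of the latter: the PDOX share was 4.75 (1.95 to 14) times the anti-PD-L1 share and 10.3 (3.21 to 52.9) times the anti-OX40/CpG share, and the untreated share was 3.96 (1.41 to 12.7) and 8.61 (2.37 to 47.1) times these.

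The monocyte-gene cells, defined here as the 123 kept cells outside the rule with at least 2 of *Csf1r*, *Clec4a1*, *Clec4a3* and *Ear2*, are another residual kind of cell. Their shares were 2.81%, 2.52%, 3.77% and 0.579% in the untreated, PDOX, anti-PD-L1 and anti-OX40/CpG libraries. Both kinds were rarest in the anti-OX40/CpG library, whereas the anti-PD-L1 library was low in neutrophils and had the highest share of monocyte-gene cells. The part that the efficiency of the selection had in these shares was not tested.

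**Figure D2:**
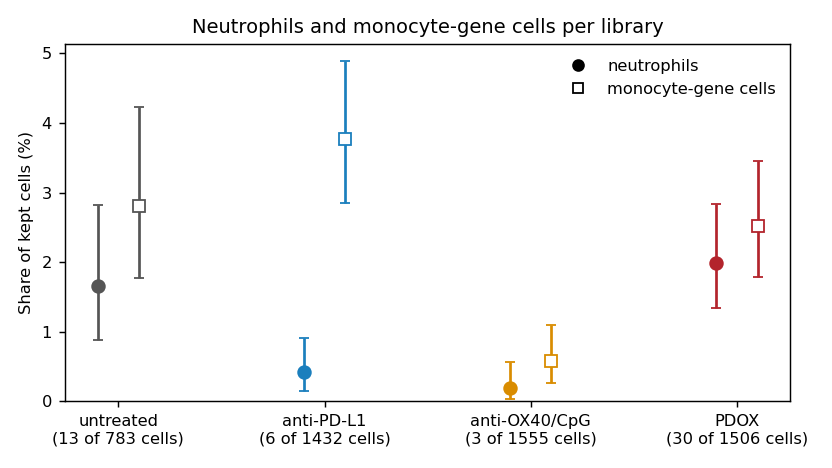
Share of kept cells (y axis, %) that were neutrophils (filled circles) and monocyte-gene cells (open squares) in each library, with exact Clopper-Pearson 95% intervals; numbers under the axis are neutrophils of kept cells. Neutrophil shares of 1.66% and 1.99% in the untreated and PDOX libraries lie above 0.419% and 0.193% in the anti-PD-L1 and anti-OX40/CpG libraries.

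Levels below are UMIs per 10000 counted UMIs, summed over cells. The kit counts 3′ ends, so a level was not divided by transcript length. After *S100a8* at 1173 (1144 to 1203) and *S100a9* at 971 (944 to 998), the most abundant transcripts of the neutrophils were *Tmsb4x* at 472, *Malat1* at 343, *Actb* at 342, *Retnlg* at 200, *Ftl1* at 162, *S100a11* at 127, *Fth1* at 112 and *Tyrobp* at 105. Among these, the actin and thymosin transcripts and *Malat1* were also abundant in the other cells (levels 196, 274 and 419.6). The ferritin chains *Ftl1* and *Fth1*, which store iron, were 6.47 and 3.1 times the level of the other cells, and *Tyrobp*, the signalling adaptor of many myeloid receptors, was 20.3 times.

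The further genes of the rule varied in how widely they were held. *Retnlg*, a resistin-like secreted protein of mouse granulocytes, had UMIs in 48 of 52 cells at 158 (untreated), 209 (PDOX), 287 (anti-PD-L1) and 27.1 (anti-OX40/CpG). In the anti-OX40/CpG library 1 of 3 cells held it, with 8 UMIs. *Slpi*, an inhibitor of neutrophil elastase, was found in 48 cells at 73, and *Il1b*, the precursor of the inflammatory cytokine interleukin 1 beta, in 42 cells at 35.9. *Csf3r*, the receptor for granulocyte colony-stimulating factor, was found in 35 cells at 11.7, *Clec4d*, a C-type lectin receptor for fungal and mycobacterial glycolipids, in 33 at 10.8, and the gelatinase *Mmp9* in 26 at 9.8. *Lcn2*, which binds bacterial siderophores, was found in 28 cells at 27.1, and *Ngp*, a secondary granule protein, in 6 cells only, at 45.7.

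Compared with all other cells, 1058 genes outside the rule had enough UMIs to be compared (at least 10 in the neutrophils, observed or at the level of the other cells). Of these, 262 (24.8%) were past 2-fold higher and 512 (48.4%) past 2-fold lower, and the median ratio was 0.552. Of the 262 genes, 166 were higher in each of the 4 libraries, and of the 512 genes, 467 were lower in each. Without the PDOX library, which held 30 of the 52 cells, fewer genes reached the UMI minimum, and 136 were higher and 177 lower. *S100a8* and *S100a9* alone took 21.4% of the UMIs counted in the neutrophils. Of the compared genes, 239 entered only through their neutrophil level and 480 only through the level of the other cells. A gene that entered only through the neutrophils had to be higher there, so for the lists below the counts are those of members that the level in the other cells alone would have let in, beside the summed level over all members in the files. The counts describe the contrast that the rule itself made.

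Among genes outside the rule with at least 20 UMIs in the neutrophils, the 15 highest ratios belonged to antiproteases and granule proteins, receptors and transporters. *Wfdc21*, a WAP domain protein, reached 20.8 (17 to 25.1) in 28 cells against 0.00216 in the other cells. *Camp*, the precursor of the antimicrobial peptide CRAMP, reached 18.1 (14.6 to 22.1), but all 94 UMIs lay in 3 cells. The stefin genes *Gm5483* and *Stfa2l1*, from the cysteine protease inhibitor cluster of chromosome 16, each reached 6.92, in 10 and 15 cells. *Lrg1*, a glycoprotein of neutrophil granules, was at 10.9 in 24 cells, and the neutrophil collagenase *Mmp8* at 6.72 in 19.

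Among the receptors, *Cxcr2*, which binds CXCL1 and CXCL2 and draws neutrophils out of the marrow, was at 6.53 in 22 cells, *Ccr1* at 8.07 in 29, and *C5ar1*, the receptor for complement fragment C5a, at 5.96 in 20. *Hcar2*, the niacin and hydroxybutyrate receptor, stood at 4.61 in 20 cells, and *Clec4e*, the Mincle receptor, at 10.6 in 26. The iron exporter *Slc40a1* (ferroportin) was at 4.61, the cystine importer *Slc7a11* at 7.69, the mitochondrial carrier *Sfxn5* at 3.84 and *F630028O10Rik* at 3.84. Levels in the other cells lay between 0.00108 and 0.0572 for all 15 genes, and the ratios between 148 and 16731. The ratio of *Camp* rests on 1 UMI in the other cells, with an interval of 2931 to 667790. 9 of the 15 were higher in each of the 4 libraries.

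**Figure D3:**
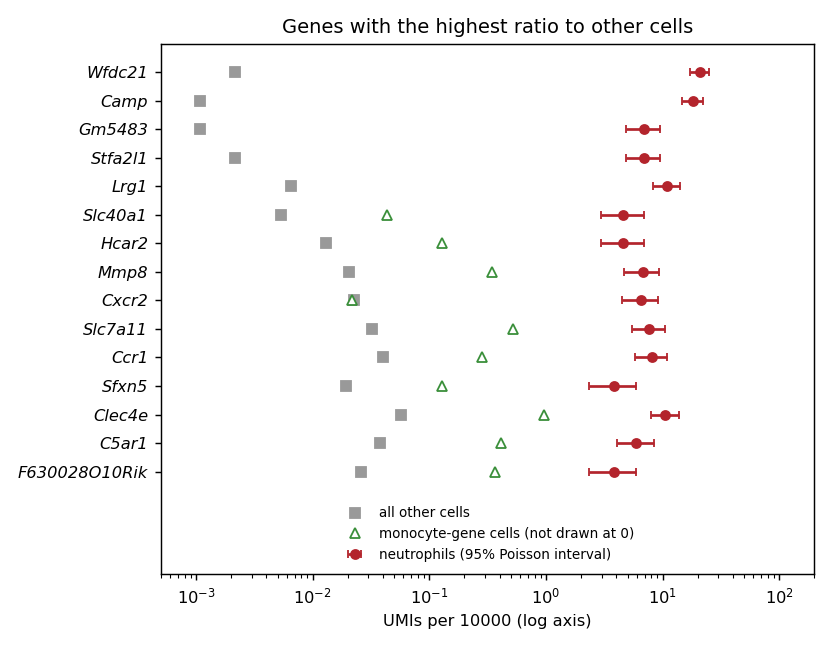
Level (x axis, UMIs per 10000, log scale) of the 15 genes with the highest ratio to other cells among those outside the rule with at least 20 UMIs, in neutrophils (red circles, exact Poisson 95% intervals), in all other cells (grey squares) and in monocyte-gene cells (green triangles; a level of 0 is not drawn). The neutrophil levels lie between 3.84 and 20.8, and those of the other cells do not exceed 0.0572.

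The promoters of these genes were read for letters bound by C/EBP factors, which drive granulocyte maturation. In the RefSeq promoter table (GRCm38.p6, the mm10 build, 250 bases before to 50 after the start of each gene), 20 of the 25 genes formed by the 10 neutrophil genes of the rule and the 15 above had an entry. The letters TTGCNNAA, on either strand, occurred in 8 of the 20 (40.0%), against 10.8% of all 32851 promoters. *Mmp8* and *Lcn2* (plus letters) and *Clec4e* (reverse letters) are shown as 30-base windows, 5′ to 3′ on the gene's strand, with the match nearest before the start in capitals, because they are among the genes that set the neutrophils apart.
Mmp8, chr9:7558399-7558428, plus strand: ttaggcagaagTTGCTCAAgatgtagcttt
Lcn2, chr2:32387937-32387966, minus strand: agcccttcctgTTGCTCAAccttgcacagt
Clec4e, chr6:123289919-123289948, minus strand: actccttgtccTTGTGCAAgagaggaaatt
A match is a description of the letters, and no binding was measured.

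Granule transcripts differed by the class of granule. All 6 primary granule genes (myeloperoxidase, neutrophil elastase and the like) had 0 UMIs, a summed level of at most 0.709. Secondary granule genes were found for each of the 11 members at a summed level of 178 (166 to 189), with *Lyz2*, the macrophage and neutrophil lysozyme, at 68.8 (61.8 to 76.3) in 43 cells, and *Lcn2*, *Ngp* and *Camp* as above. *Ltf* (lactoferrin) was at 4.8 in 3 cells and the surface marker *Ly6g* at 3.27 in 8. The other cells summed to 20.4, and *Lyz2*, 3.5 times their level, was the 1 member outside the rule that they alone would have let in. Tertiary granule and secretory genes summed to 113 (104 to 123), led by *Slpi* and by *Hp* (haptoglobin) at 24.6 (20.5 to 29.2) in 46 cells, with the formyl peptide receptor *Fpr2* at 2.11.

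Secondary granule transcripts were concentrated in 3 cells. Of the 357 UMIs of *Ngp*, *Camp* and *Ltf*, 354 (99.2%) lay in 1 cell of the anti-PD-L1 library with 44 UMIs and 2 cells of the PDOX library with 122 and 188, and no other neutrophil held more than 1 UMI of the 3 genes. These cells were deep, with a median of 1964 UMIs and 506 genes against 883 and 368 in the other 49, and were separated after their values had been seen (at least 10 UMIs of *Ngp*, *Camp* and *Ltf*). Further genes were named after their values had been seen. The levels of *Lcn2* were 110.1 against 15.5, of *Ifitm6* 37.8 against 2.85, of *Ly6c2* 22 against 2.19, of *Wfdc21* 61.3 against 15.1, of the annexin *Anxa1* 29.9 against 5.91, of *Mgst1* 20.4 against 5.25 and of *Mmp8* 17.3 against 5.25. *Cd177*, a neutrophil surface protein, had 6 UMIs in 3 cells against 0 UMIs in 0, and the chitinase-like gene *Chil3* 3 UMIs in 2 cells against 0 UMIs in 0.

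The same 3 cells held little of the genes that were widespread in the others. *Ccl6*, a chemokine, stood at 4.72 against 61.9, *Il1b* at 1.57 against 40.7, *S100a6* at 11 against 70.5, *Btg1* at 9.44 against 49.9, *Rac2* at 3.15 against 23.6, *H3f3b* at 4.72 against 23.4 and *Lst1* at 3.15 against 22.3. No UMI was found for *Srgn*, *Junb*, *Ifitm1* or *Csf3r*, where the other 49 cells held 148, 140, 121 and 61 UMIs. With 6358 UMIs in the 3 cells, the exact interval for 0 UMIs runs up to 5.8 per 10000, against 13.3 for *Csf3r* and 32.4 for *Srgn* in the others. The anti-PD-L1 library held 1 of 6 and the PDOX library 2 of 30 such cells, and with 0 of 13 the exact interval for the untreated library runs up to 24.7%.

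**Figure D4:**
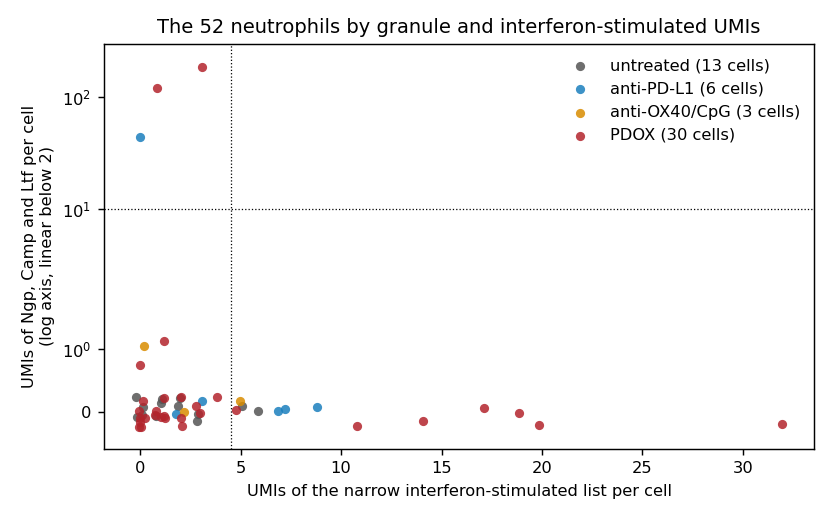
The 52 neutrophils by their UMIs of 26 interferon-stimulated genes with low levels in other cells (x axis) and of Ngp, Camp and Ltf (y axis, log scale, linear below 2), coloured by library, with a small random shift for display; dotted lines mark the limits used to describe the cells. 3 granule-rich cells lie at 44 to 188 granule UMIs, and 13 interferon-rich cells at 5 to 32 UMIs, with no cell past both limits.

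Genes of mature blood neutrophils, with *Retnlg*, *Il1b* and *Csf3r* of the rule, were found for each of the 16 members. They summed to 668 (646 to 690.4) against 89.3 in the other cells. Of the 13 members outside the rule, 7 entered by the level of the other cells, and 5 of these were past 2-fold higher: *Msrb1*, *Fth1*, *Srgn*, *Ifitm1* and *Dusp1*. By library, *Ifitm1* was higher in 2 and lower in 2. *Msrb1*, a methionine sulfoxide reductase, was detected in all 52 cells at 93.8 (85.6 to 102), 46.5 times the other cells. *Ccl6* reached 55 (48.8 to 61.7), *Srgn*, the granule proteoglycan serglycin, 28.4 (24 to 33.4), the G protein regulator *Rgs2* 13.4 (10.5 to 17) and the phosphatase *Dusp1* 13.6 (10.7 to 17.2). The antiproliferative gene *Btg1* at 45 (39.4 to 51.1) was 1.59 times the other cells, of which 4292 held at least 2 Cd3 genes. *Il1r2*, a decoy receptor for interleukin 1, had 16 UMIs, 0, 13, 3 and 0 in the untreated, PDOX, anti-PD-L1 and anti-OX40/CpG libraries. Summed levels in untreated, PDOX, anti-PD-L1 and anti-OX40/CpG neutrophils were 686 (637 to 737), 669.9 (641 to 699.6), 692 (635 to 752) and 518 (439 to 607). Of these sums, *Retnlg* alone gave 158, 209, 287 and 27.1. The order of the libraries thus rests in part on a gene that chose the cells, and no ranking is drawn from it.

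The 6 markers linked to aged neutrophils summed to 14.8 (11.7 to 18.5) against 8.3 in the other cells. *Cxcr4*, the marrow retention receptor, was at 4.23 (2.65 to 6.4) in 17 cells and *Cd24a* at 8.26 (5.98 to 11.1) in 24. By the level of the other cells only 1 member entered, *Cd47*, and it was past 2-fold lower at 0.254 times. *Hmgb2* and *Lmnb1*, nuclear genes of neutrophils, were at 16.1 and 3.84, 2.72 and 10.5 times the other cells. Of 16 cell cycle genes, 11 had 0 UMIs, and the rest was mostly *Hmgb2* and *H2afz* at 5.38.

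Chemoattractant receptors summed to 33.6 (28.8 to 39) over 10 members against 0.56 in the other cells, and pattern recognition and Fc receptors, with *Clec4d* of the rule among them, to 203 (191 to 216) over 23 members against 11.7. By the level of the other cells alone, only *Tyrobp* and *Fcer1g* would have entered, and both were past 2-fold higher. Beside *Cxcr2*, *Ccr1*, *C5ar1*, *Cxcr4* and *Fpr2*, the platelet-activating factor receptor *Ptafr* was at 5 (3.26 to 7.32). *Fcer1g*, the Fc receptor gamma chain, was at 43.2 (37.8 to 49.3) in 50 cells, and the immunoglobulin G receptors *Fcgr3* and *Fcgr4* at 5.19 and 2.11. The activating receptors *Trem1* and *Trem3* were at 2.5 and 4.42, the inhibitory receptors *Pirb* and *Lilrb4a* at 3.65 and 4.23, *Lilr4b* at 2.69 and *Sirpb1c* at 2.88. Growth factor and cytokine receptors, with *Csf3r* of the rule, summed to 30.9 (26.3 to 36.1) against 9.57. *Tnfrsf1a* was at 3.46 and *Ifngr2*, a chain of the interferon gamma receptor, at 1.92. By the level of the other cells only 1 member entered, the other chain *Ifngr1*, and it was past 2-fold lower at 0.294 times.

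Adhesion genes mostly stood near the other cells. The list summed to 35.9 (31 to 41.5) against 22, and none of the 4 members that entered by the level of the other cells was past 2-fold either way. The hyaluronan receptor *Cd44* was at 8.07 (5.82 to 10.9), or 8.8 times, and the integrin chain *Itgal* at 3.65 (2.2 to 5.7), or 2.08 times, while the selectin ligand *Selplg* at 11.3 and *Itgb2* at 2.88 were 1.33 and 1.19 times. Of the NADPH oxidase, which makes the respiratory burst, *Ncf1* was at 2.5 and *Ncf4* at 2.69, and *Cyba* at 17.9 and *Rac2* at 21.1 were 1.78 and 0.953 times. *Cybb*, the catalytic chain, had 0 UMIs in 52046 counted UMIs, against 544 UMIs and a level of 11.7 in the monocyte-gene cells.

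The cytokine and chemokine list, with *Il1b* of the rule, summed to 116 (107 to 126) against 7.27 in the other cells. *Ccl6* and *Il1b* led it, followed by *Ccl3* at 5.96 (4.05 to 8.45), the interleukin 1 receptor antagonist *Il1rn* at 5.19 (3.42 to 7.55), oncostatin M (*Osm*) at 4.8 (3.11 to 7.09), *Cxcl2* at 3.27 (1.9 to 5.23) and *Ccl4* at 2.69 (1.47 to 4.51). *Alox5ap*, which presents arachidonic acid to 5-lipoxygenase for leukotriene synthesis, was detected in 48 cells at 25.8 (21.6 to 30.5), 20.1 times the other cells. The platelet-activating factor acetylhydrolase *Pla2g7* was at 5.38 and the prostaglandin synthase *Ptgs2* at 2.5, and the list of 8 summed to 35.4 (30.4 to 40.9) against 1.97. Stefins and antiproteases, with *Slpi* of the rule, summed to 122 (113 to 132) over 13 members, 5 of them at 0 UMIs, against 5.63, and *Wfdc17* was at 12.5 (9.64 to 15.9).

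Genes described in suppressive neutrophils of tumor-bearing hosts, with *Clec4d* of the rule, summed to 70.3 (63.3 to 77.9) over 20 members against 14. By the level of the other cells 3 members entered, of which *Ctsd* was past 2-fold higher and *Ctsb* lower. *Wfdc17*, *Clec4e*, *Cxcr2*, *Trem1* and *Ptgs2* are given above, the lysosomal protease *Ctsd* was at 12.1 (9.3 to 15.5), and arginase 2 (*Arg2*) at 3.46 (2.05 to 5.47) in 14 cells against 0.00108, 1 UMI, in the other cells. *Cd84* was at 2.69, 1.59 times the other cells. Several members are ordinary neutrophil genes, and no neutrophil of a tumor-free mouse was measured here. Of the S100 and annexin list, 6 members entered by the level of the other cells, 3 of them past 2-fold higher and 2 lower. The higher ones were *S100a11* at 127 (117 to 137), *S100a6* at 63.2 (56.6 to 70.4) and *Anxa2* at 12.5. The lower ones were *S100a4* and *S100a10*, at 0.0276 and 0.0452 times. *Anxa1* was at 8.84, and *S100a13* at 2.31 was 0.54 times.

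Regulators and housekeeping genes were closer to the other cells. Transcription factors summed to 65.5 (58.8 to 72.9) against 53.1, with *Spi1* (PU.1) at 10.4 (7.79 to 13.5) and *Cebpb* at 2.31 (1.19 to 4.03). Of the 4 members that entered by the level of the other cells, 0 were past 2-fold higher and 1 lower, *Id2* at 0.182 times. *Junb* was 1.61, *Klf2* 0.688 and *Klf6* 0.742 times. Of 11 immediate early genes that entered by the level of the other cells, 5 were past 2-fold higher and 2 lower. *Fos* at 13.1, *Ier5* at 13.4, *Zfp36* at 10.9, *Dusp1* and *Btg2* were 4.08, 3, 3.91, 6.44 and 2.03 times. The lower ones were *Jun* and *Dusp2*, at 0.378 and 0.273 times. *Ier2* and *Jund* were 1.74 and 0.723 times. *Mcl1*, a survival protein on which neutrophils depend, was at 8.84 (6.47 to 11.8), 3.76 times, and was the 1 of 3 comparable survival and death genes that was past 2-fold higher, the other two being lower. Glycolysis genes had a median ratio of 1.02 over 6 comparable members, with *Gapdh* at 9.8, *Aldoa* at 7.69, *Pkm* at 6.92, *Gpi1* at 4.42, *Eno1* at 3.84 and *Ldha* at 2.5, and only *Ldha* past 2-fold lower.

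Set against the 123 monocyte-gene cells, 3568 genes could be compared on at least 20 UMIs in both together, of which 259 (7.26%) were past 2-fold higher and 819 (23%) past 2-fold lower in neutrophils. Monocyte-gene cells were deeper, with a median of 3466 UMIs. *Wfdc21*, *Camp*, *Lrg1*, *Gm5483* and *Stfa2l1* had 0 UMIs in the monocyte-gene cells. With 3 UMIs over the group put in place of 0, their ratios were 321, 279, 169, 107 and 107. Also among the 10 highest were the histidine decarboxylase *Hdc* at 205 (53.6 to 1744) times and the interleukin 36 gene *Il1f9* at 339 (57.2 to 13729). The others were *Cxcr2* at 303 (50.9 to 12320), *H2-Q10* at 116 (29 to 1008) and *Ifitm1* at 77 (44.2 to 145). The ratios of *Hdc*, *Il1f9*, *Cxcr2* and *H2-Q10* rest on 1 or 2 UMIs in the monocyte-gene cells. With 3 UMIs in their place, as for the genes at 0, they were 137, 113, 101 and 77.3.

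At the other end stood genes of monocytes and of antigen presentation. The class II invariant chain *Cd74* was at 0.384 against 40.4, *Crip1* at 0.192 against 43.4, *S100a4* at 0.192 against 22.5, cathepsin S (*Ctss*) at 0.769 against 25 and *Apoe* at 0.192 against 18.4. *Plac8* was at 4.42 against 107, *Tmsb10* at 3.27 against 77.6 and *Prdx1* at 0.576 against 10.4. *Ms4a6c* and *Cybb* had 0 UMIs in the neutrophils against 16.7 and 11.7. The 17 monocyte markers, 4 of them genes of the rule, summed to 6.92 (4.84 to 9.58) against 125, with *Ly6c2* at 4.61, and *Lyz2* was 0.192 (0.173 to 0.213) times the monocyte level. The chemoattractant receptors stood at 33.6 against 3.4, the cytokines at 116 against 28.5 and the mature neutrophil genes at 668 against 136. The cytokine sum holds the rule gene *Il1b*, at 35.9 in the neutrophils. The mature sum holds *Il1b*, *Retnlg* at 200 and *Csf3r* at 11.7, so the rule itself made part of these contrasts.

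MHC class II genes gave 3 UMIs in 3 neutrophils, a level of 0.576 (0.119 to 1.69) against 65 in the monocyte-gene cells. Markers of erythroid cells, platelets and eosinophils gave 5, 3 and 1 UMIs. Transcripts of the treatment targets were near 0: the 6 genes, among them those for PD-L1 and OX40, gave 3 UMIs in 2 cells, 2 of them of *Cd274* (PD-L1), a summed level of 0.576 (0.119 to 1.69). At this depth a cell without a UMI is not shown to lack the transcript.

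The neutrophils of each treated library were then set side by side with the 13 untreated ones, gene by gene, on at least 20 UMIs in the 2 libraries together. In the PDOX comparison, 25 of 235 genes (10.6%) were past 2-fold higher and 16 (6.81%) past 2-fold lower than untreated. Of the 10 MHC class I genes, *H2-K1*, *H2-D1* and *B2m* were comparable, and all 3 were past 2-fold higher. *H2-D1* and *B2m* had 25 and 30 UMIs in the untreated cells, while *H2-K1* entered through its PDOX UMIs. Class I molecules present peptides of the cell's own proteins to CD8+ T cells, with *H2-K1* and *H2-D1* as heavy chains and *B2m* (beta-2 microglobulin) as their shared light chain.

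*H2-K1* had 2 UMIs in 13 untreated neutrophils, 57 in 30 PDOX, 12 in 6 anti-PD-L1 and 0 in 3 anti-OX40/CpG neutrophils. It was found in 2, 25, 5 and 0 cells of these libraries, so that most PDOX and anti-PD-L1 neutrophils and few others held it. The PDOX ratio to untreated was 9.93 (2.62 to 83.9). After thinning each cell to 650 UMIs, which left out 4 untreated cells, the share of cells with an *H2-K1* UMI was 0%, 67.6%, 66.9% and 0%, against 15.4%, 83.3%, 83.3% and 0% unthinned. The 2 untreated cells with an *H2-K1* UMI were among those left out.

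*H2-D1* levels were 23.5 (untreated), 52.1 (PDOX), 32.8 (anti-PD-L1) and 33.9 (anti-OX40/CpG), and those of *B2m* were 28.2 (untreated), 60.6 (PDOX), 34.1 (anti-PD-L1) and 27.1 (anti-OX40/CpG). The PDOX ratios to untreated were 2.21 (1.45 to 3.52) for *H2-D1* and 2.15 (1.46 to 3.27) for *B2m*, so that both chains were higher in the same direction as *H2-K1*. *H2-Q7*, a nonclassical class I gene, had 2, 17, 0 and 0 UMIs in the untreated, PDOX, anti-PD-L1 and anti-OX40/CpG libraries, *H2-T23* 0, 7, 3 and 0, and the immunoproteasome subunits *Psmb8* and *Psmb9* 0, 13, 5 and 2 and 2, 11, 4 and 0.

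Summed over the 10 class I genes, the level was 60.2 (46.3 to 76.8) in untreated, 151 (138 to 166) in PDOX, 97.2 (76.7 to 122) in anti-PD-L1 and 67.8 (41.4 to 105) in anti-OX40/CpG neutrophils. The PDOX level was 2.51 (1.93 to 3.32) times the untreated one, and the anti-PD-L1 level 1.62 (1.15 to 2.29) times, and the anti-OX40/CpG level 1.13 (0.645 to 1.89) times, an interval that includes 1. Cell by cell, the class I level had its lowest, median and highest values at 14.6, 56.1 and 164 in untreated, at 40.9, 149 and 367 in PDOX, at 54.7, 99.6 and 196 in anti-PD-L1 and at 25.7, 52.1 and 146 in anti-OX40/CpG neutrophils. The libraries overlapped, and 13 of 30 PDOX neutrophils lay above every untreated one. Without the PDOX cell that held Cd3 genes, the PDOX level was 149 (136 to 164).

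Class I levels of other cells differed between the libraries too, with smaller PDOX ratios, and the difference between kinds of cell was not tested. In monocyte-gene cells of the untreated, PDOX, anti-PD-L1 and anti-OX40/CpG libraries they were 149.7, 228, 207 and 134, with a PDOX ratio to untreated of 1.52 (1.43 to 1.63). Among the 4292 remaining cells with at least 2 Cd3 genes they were 155, 202, 184 and 165, with a ratio of 1.3 (1.28 to 1.32). Class I transcripts are abundant in these cells, and the part that their free RNA had in the neutrophil values was not tested. For *H2-K1* alone the PDOX ratios were 2.21 (1.76 to 2.78) and 1.28 (1.23 to 1.34). Neutrophils had the lowest class I level of the 3 kinds of cell in every library, and 4 of the 8 comparable genes of the list were past 2-fold lower than in all other cells, near the 48.4% of all compared genes. *H2-Q10*, a class I gene outside the list, was at 5 against 0.239.

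**Figure D5:**
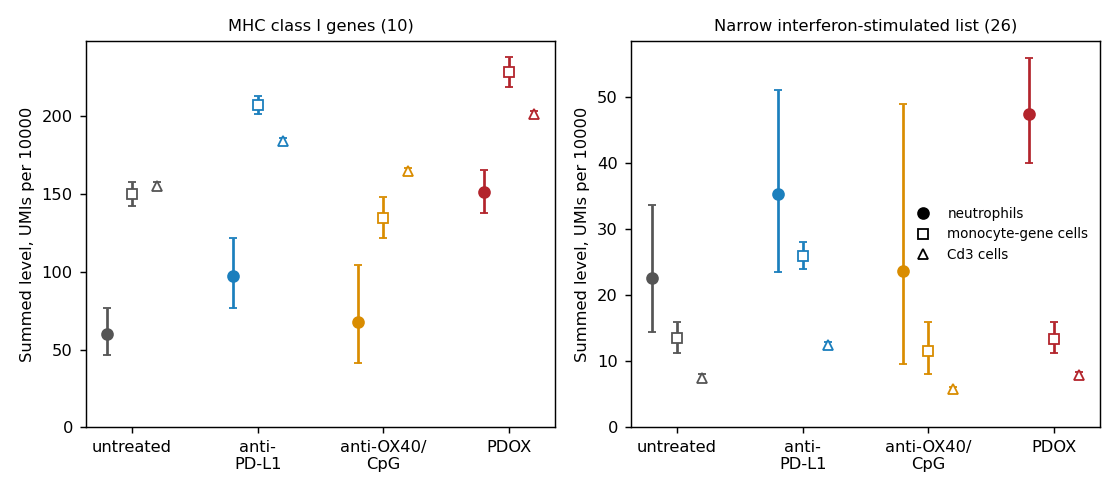
Summed level (y axes, UMIs per 10000, exact Poisson 95% intervals) of 10 MHC class I genes (left) and of 26 interferon-stimulated genes with low levels in other cells (right) in neutrophils (filled circles), monocyte-gene cells (open squares) and Cd3 cells (open triangles) of each library. In neutrophils the class I level runs from 60.2 in the untreated to 151 in the PDOX library, and the interferon-stimulated level from 22.6 to 47.5.

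Interferon-stimulated genes, a list of 36, summed to 102 (93.5 to 111) in neutrophils against 56.1 in the other cells. Of 5 members that entered by the level of the other cells, 4 were past 2-fold lower and 0 higher, and 11 others entered only through the neutrophils. *Ifi27l2a* led at 34 (29.2 to 39.4), followed by the ubiquitin-like modifier *Isg15* at 9.41 (6.96 to 12.4), *Ly6e* at 6.92, *Rtp4* at 6.72, *Slfn1* at 6.15, the exonuclease *Isg20* at 4.04, *Oasl2* at 3.65 and the translation inhibitor *Ifit1* at 3.27. *Slfn4* at 2.88 was 297 (122 to 769) times the level of the other cells and the antiviral enzyme *Rsad2* (viperin), at 2.69, was 20.6 (10.9 to 35.9) times, whereas *Ly6e*, widely expressed by lymphocytes, was 0.488 times. *Ifit3* and *Ifit3b*, near-identical neighbours 18.5 kb apart on chromosome 19 whose reads may be shared, were at 2.69 each.

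Many of these promoters hold the letters of the interferon-stimulated response element, which mediates the response to type I interferon. GAAA, any 2 bases and GAAA again, on either strand, occurred in 17 of 27 listed promoters (63.0%), against 3.44% of all promoters. *Isg15*, *Rsad2* and 3 Ifit genes are shown because they marked the interferon-rich neutrophils described further on, with the match nearest before the start in capitals, as 30-base windows on GRCm38.p6 and the gene's strand.
Isg15, chr4:156200865-156200894, minus strand: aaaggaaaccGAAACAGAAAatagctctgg
Ifit1, chr19:34640794-34640823, plus strand: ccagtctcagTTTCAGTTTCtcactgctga
Ifit3, chr19:34583397-34583426, plus strand: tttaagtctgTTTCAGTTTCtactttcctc
Ifit3b, chr19:34607793-34607822, plus strand: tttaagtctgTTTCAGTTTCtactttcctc
Rsad2, chr12:26456553-26456582, minus strand: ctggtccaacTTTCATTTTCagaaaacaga
The windows of *Ifit3* and *Ifit3b* are identical, and those of *Ifit1*, *Ifit3* and *Ifit3b* share the 10 letters of the match. The same letters occurred in 2 of 20 promoters (10%) of the neutrophil genes above and in 2 of 9 (22.2%) of the MHC class I genes.

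By library, the whole list was at 64.9 (50.5 to 82.1) in untreated, 109 (98 to 122) in PDOX, 140.2 (115 to 169) in anti-PD-L1 and 57.6 (33.5 to 92.2) in anti-OX40/CpG neutrophils. Ratios to untreated were 1.69 (1.3 to 2.22), 2.16 (1.59 to 2.96) and 0.888 (0.489 to 1.53). The median level per cell was 51.4 in untreated, 57.9 in PDOX, 119 in anti-PD-L1 and 85.0 in anti-OX40/CpG neutrophils. The cell with most UMIs of this list in each library was then left out, a choice made by the value compared. The levels were 58.1 (43.8 to 75.6) in untreated, 93.7 (83.0 to 105) in PDOX, 84.5 (64.5 to 109) in anti-PD-L1 and 40.1 (17.3 to 79.1) in anti-OX40/CpG neutrophils. The PDOX interval then lay above the untreated one, and the anti-PD-L1 interval overlapped both. With the limit on *S100a8* and *S100a9* lowered to 3 UMIs, 1 untreated cell was added. It held 4 of these UMIs, against at least 17 in every neutrophil of the rule. With this 1 cell the untreated level was 112 (98.9 to 126), and its interval overlapped those of PDOX and anti-PD-L1. The rise from 64.9 thus rests on a single cell far below the neutrophils in *S100a8* and *S100a9*. *Ifi27l2a* alone had 31, 90, 56 and 0 UMIs in the untreated, PDOX, anti-PD-L1 and anti-OX40/CpG libraries, and 1 anti-PD-L1 cell held 36 of them. Thinned to 650 UMIs, 74.1%, 89.1%, 98.7% and 86% of the neutrophils of these libraries held a UMI of the list.

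A narrow list of the 26 members with a level under 1 in the other cells was formed after their values had been seen. It was at 22.6 (14.5 to 33.6), 47.5 (40.1 to 55.9), 35.4 (23.5 to 51.1) and 23.7 (9.53 to 48.9) in the untreated, PDOX, anti-PD-L1 and anti-OX40/CpG neutrophils, with a PDOX ratio to untreated of 2.1 (1.36 to 3.39). In the PDOX library the monocyte-gene cells, at 13.4, and the Cd3 cells, at 7.97, were 0.996 (0.774 to 1.28) and 1.06 (0.97 to 1.16) times their untreated levels. In the anti-PD-L1 library those cells were higher, at 1.93 (1.59 to 2.35) and 1.65 (1.52 to 1.79) times, and the neutrophils were at 1.57 (0.876 to 2.82) times. Whether these ratios differ between kinds of cell was not tested. *Isg15*, not on the narrow list, had 2, 34, 11 and 2 UMIs in 1, 10, 4 and 2 neutrophils of these libraries.

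The narrow genes were unevenly spread among the neutrophils. Of their 204 UMIs, 69.6% lay in 10 cells. With at least 5 UMIs of the list taken as interferon-rich, a limit set after seeing the values, there were 13 such cells: 2 of 13 untreated, 7 of 30 PDOX, 3 of 6 anti-PD-L1 and 1 of 3 anti-OX40/CpG neutrophils, or 15.4% (1.92 to 45.5%), 23.3% (9.93 to 42.3%), 50% (11.8 to 88.2%) and 33.3% (0.84 to 90.6%). The intervals of these shares overlapped, and the median depth was 883 UMIs in these cells and 942 in the other 39. *Isg15*, which was not used to find them, had 43 UMIs in 12 cells against 6 UMIs in 5, so 12 of the 13 held it. Of the genes that did find them, *Ifit3* had 14 UMIs in 8 of the 13 cells, *Ifit1* 16 in 8 and *Rsad2* 13 in 9, and the other 39 cells held 0, 1 and 1 UMI.

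Within the PDOX library alone, where the treatment is constant, the 7 interferon-rich neutrophils differed from the other 23 in further genes, named here after their values had been seen. *Fgl2*, a fibrinogen-like protein, was at 22.9 against 6.14, *Ifitm3*, an antiviral membrane protein, at 73.5 against 21.7, *Calm2* at 14.7 against 4.5, *Pilra* at 16.3 against 5.32, *Il1f9* at 14.7 against 5.32, *Gpx1* at 31 against 11.5, *Taldo1* at 44.1 against 17.6 and *Ifitm1* at 50.6 against 22.1. MHC class I genes together were at 230.3 against 132, a ratio of 1.75 (1.43 to 2.14), with *B2m* at 96.4 against 51.6. *H2-K1* was at 26.1 against 16.8, a ratio of 1.56 (0.815 to 2.83), an interval that includes 1. In the 23 remaining PDOX neutrophils the class I level remained above the 60.2 of the untreated library. *Lyz2* was at 18 against 85.6, *Clec4e* at 1.63 against 15.6, *Wfdc17* at 1.63 against 12.7, *Mgst1* at 1.63 against 11.5 and *S100a8* at 669.7 against 1222. *Lrg1* was at 4.9 against 14.7, a ratio of 0.332 (0.0655 to 1.05), an interval that includes 1. The other 23 cells included the 2 granule-rich PDOX cells and the cell with Cd3 genes. The 3 granule-rich cells stood at 149 for *Lyz2*, 66.1 for class I genes and 0 for *Wfdc17*, against 57.6, 127 and 14.2 in the other 49 neutrophils. The part of these cells in the differences was not tested. The mature neutrophil genes as a group had a ratio of 1.11 (0.996 to 1.23), which includes 1. This group holds genes of the rule, *Retnlg* at 137 against 227, *Il1b* at 53.9 against 38.9 and *Csf3r* at 16.3 against 9.01. Its ratio therefore does not describe the members outside the rule. None of the 13 interferon-rich cells was granule-rich.

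Ifitm genes, small membrane proteins that block virus entry, summed to 97.2 (88.9 to 106) against 13.9 in the other cells, and all 3 members that entered by the level of the other cells, *Ifitm1*, *Ifitm2* and *Ifitm3*, were past 2-fold higher. *Ifitm2* was at 33.8 (29 to 39.2), *Ifitm3* at 33 (28.3 to 38.4), *Ifitm1* at 23.2 (19.3 to 27.8) and *Ifitm6* at 7.11 (5 to 9.8). Untreated, PDOX, anti-PD-L1 and anti-OX40/CpG neutrophils were at 120.4 (100.4 to 143), 95.9 (85.3 to 108), 82.1 (63.4 to 105) and 67.8 (41.4 to 105), highest in the untreated library. *Ifitm1* had 31, 85, 5 and 0 UMIs in 7, 18, 2 and 0 cells of the untreated, PDOX, anti-PD-L1 and anti-OX40/CpG libraries. Its level was above that of the other cells in the untreated (29.1 against 2.57) and PDOX (27.8 against 8.32) libraries. It was below them in the anti-PD-L1 (6.31 against 7.42) and anti-OX40/CpG (0 against 2.63) libraries.

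At the top of the PDOX comparison, *Ngp* and *Camp* had 0 UMIs in untreated neutrophils, but their 199 and 89 UMIs lay in 4 and 2 PDOX cells, and the third, *Ccl5*, lay almost wholly in the cell with Cd3 genes. *Aldoa*, a glycolytic aldolase, had 35 UMIs in 18 cells against 2 UMIs in 2 cells, a ratio of 6.09 (1.57 to 52.3). *Ccl3*, a chemokine that attracts monocytes and T cells, had 10 UMIs in 4 cells against 19 UMIs in 5 cells, a ratio of 0.183 (0.0761 to 0.414). Its level was 17.9 (untreated), 3.27 (PDOX), 1.26 (anti-PD-L1) and 3.39 (anti-OX40/CpG), and in the monocyte-gene cells the PDOX ratio was 0.152 (0.0463 to 0.392). The guanine deaminase *Gda* had 15 UMIs in 12 cells against 15 UMIs in 7 cells, while *1600010M07Rik* and *Gm10116* were at 0.321 times the untreated level each. In the mature neutrophil list, 0 of 15 comparable members were past 2-fold higher and 1 lower.

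For the 6 anti-PD-L1 neutrophils, 95 genes could be compared with untreated, of which 7 (7.37%) were past 2-fold higher and 7 (7.37%) lower. *Ngp* was highest through 1 cell. *Arpc3*, a subunit of the actin-branching complex, had 16 UMIs in 5 cells against 7 UMIs in 7 cells, a ratio of 3.07 (1.2 to 8.82), and *Ifi27l2a* a ratio of 2.43 (1.54 to 3.89), while *Cdc42* and *Gm42418*, at 2.18 (0.838 to 6.07) each, had intervals that include 1. *Ccl3* had 1 UMI against 19 UMIs in 5 cells and *Ifitm1* 5 UMIs in 2 cells against 31 UMIs in 7 cells, ratios of 0.0707 (0.0017 to 0.445) and 0.217 (0.0658 to 0.562). *Cst3* and *Rplp0* at 0.403 (0.132 to 1.04) each and *Gmfg* at 0.413 (0.162 to 0.94) completed the low end. Of all 31 *Ccl3* UMIs, 11 lay in 1 untreated cell, and the anti-PD-L1 and anti-OX40/CpG libraries held 1 each.

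The 3 anti-OX40/CpG neutrophils held 2952 UMIs in all, and 71 genes could be compared, of which 5 (7.04%) were past 2-fold higher and 7 (9.86%) lower. *Wfdc17* had 18 UMIs in 2 cells against 10 UMIs in 5 cells, a ratio of 6.49 (2.84 to 15.7), the polyamine acetyltransferase *Sat1* 3.6 (1.35 to 9.64), thioredoxin (*Txn1*) 2.82 (1.43 to 5.46), *Lst1* 2.65 (1.23 to 5.58) and *Neat1* 2.4 (0.852 to 6.39). *Sat1*, *Txn1*, *Lst1* and *Neat1* were found in all 3 cells. At the low end, *Retnlg* was at 0.172 (0.0729 to 0.346), *S100a6* at 0.221 (0.079 to 0.498) and *Lyz2* at 0.39 (0.162 to 0.808). *Ifi27l2a* and *Ifitm1* had 0 UMIs in these cells against 31 each in the untreated ones. The exact interval of both ratios runs up to 0.455. With 3 cells, each of these values rests on few transcripts.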

How the data were processed

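Single-cell 3′ RNA libraries (10x Genomics) of T cell-enriched blood were made, 1 per treatment; the GEO design text gives 4 blood samples from 4 mice. The deposited values are UMI counts per gene and cell, which the authors made with Cell Ranger and analysed with Seurat 2 on mm10, per the labels and the methods of the study; no normalized values were used. Here, cells with 200 to 2900 detected genes were kept, and mitochondrial, ribosomal protein and hemoglobin genes were left out of totals. A level is UMIs per 10000 counted UMIs. Levels carry exact Poisson, shares exact Clopper-Pearson and ratios exact conditional binomial 95% intervals, which cover counting error only. A gene was called past 2-fold when it had at least 10 UMIs, observed or at the level of the other cells, or at least 20 UMIs summed in comparisons between libraries or with monocyte-gene cells. For the 2-fold calls and the rankings, a count below 3 UMIs was raised to 3 on either side of a ratio. Printed ratios use the counts as found, except where the count below was 0. There 3 UMIs were put in its place, which gives a value and no exact limit. With 1 library per treatment no test was run and no p-value is given.

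The rule for the cells and the 37 gene lists were chosen with earlier results of these data known. Of 393 listed genes, 385 were in the files, and the rest were not analysed here. Named genes were those of the rule, up to 8 members per list with at least 10 UMIs, the 15 highest ratios to other cells among genes with at least 20 UMIs, the 10 highest levels, the 10 highest and 10 lowest ratios to monocyte-gene cells, and 5 per direction for each treated library. Genes that set the granule-rich and interferon-rich cells apart were chosen after their values were seen. Promoters came from RefSeq (GRCm38.p6). The calculations used Python 3.11.15, NumPy 2.4.6, SciPy 1.17.1, pandas 2.3.3 and Matplotlib 3.10.9, and were tested on simulated counts. Alternative limits, totals and UMI minimums are given in the closing section. A few items are not reported here.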

Additional observations from a re-analysis of the deposited data

How the results depend on the processing

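Over 136 alternative values for 19 results, 111 stayed within the limits set for calling them unchanged (1 counting interval, or 1.5-fold for a count of genes) and 25 moved. The number of neutrophils and the 4 shares moved under none of the alternatives run. With the limit on S100a8 and S100a9 at 3 UMIs, 1 untreated cell with 4 of these UMIs was added. Through this cell the untreated level was 111.9 for interferon-stimulated genes and 45.8 for secondary granule genes. With S100a8 and S100a9 left out of the total, interferon-stimulated genes were at 193.5 (anti-PD-L1) and 137.9 (PDOX), MHC class I genes at 134.2 and 190.7, secondary granule genes at 123.8 (untreated), 263.2 (anti-PD-L1) and 266.6 (PDOX), and 327 genes were past 2-fold lower than in other cells. Counting mitochondrial, ribosomal protein and hemoglobin UMIs in the total gave 224 lower genes. A UMI minimum of 20 gave 139 higher and 218 lower, and a minimum of 1 gave 2593 and 926. Leaving out each library in turn gave 136 to 246 higher and 177 to 476 lower genes, fewest without PDOX. 3 alternatives were chosen after seeing the data. Without the cell with most interferon-stimulated UMIs in each library, these genes were at 84.5 (anti-PD-L1) and 93.7 (PDOX). On the narrow list, with all cells, they were at 22.6, 47.5, 35.4 and 23.7 in the untreated, PDOX, anti-PD-L1 and anti-OX40/CpG libraries. Without the granule-rich cells, secondary granule genes were at 64.1 (anti-PD-L1) and 78.6 (PDOX), against 190.7 and 211.5. Each of these settings changes the cells, genes or total by its own construction. No paired analysis was possible because there was 1 library per treatment and no test. Depth limits the values of the 6 anti-PD-L1 and 3 anti-OX40/CpG neutrophils most, with 7919 and 2952 UMIs in all.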
